A study of Mus musculus with 18 samples.

Results

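Nuclear RNA of control mouse embryonic stem cells was compared before and 3 h after actinomycin D, in 4 of the 18 libraries of the series. The libraries were chosen by their labels: 2 of Ythdc1_Control cells at 0 h and 2 at 3 h, called r1 and r2. The strain is C57BL/6. Cells grew in serum with LIF, the GSK3 inhibitor CHIR99021 and the MEK inhibitor PD0325901. Plates seeded 48 h earlier were given actinomycin D at 5 µg/ml, and those of 0 h were collected as the drug was added. The labels give the same drug, dose and medium for both groups. The labels name the genotype only as Ythdc1_Control, so the alleles that these cells carry are not known here, and they do not say whether r1 and r2 were separate cultures. P-values then measure the spread between libraries, which may be technical.

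Actinomycin D binds DNA and blocks RNA polymerases, so RNA that is broken down or exported is not replaced. Within a nucleus, unspliced precursors and RNAs of short life go early, while spliced mRNAs, mRNA caught at the nuclear envelope and small RNAs held in protein particles can stay. RNA that leaves the nucleus and RNA that is degraded both count as a loss in a nuclear fraction. The libraries were made from total RNA freed of ribosomal RNA, with ERCC RNAs (synthetic spike-ins) added to each sample.

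Changes are given on 2 scales. CPM are a gene's reads scaled to 1000000 gene reads of its library after a TMM factor, so a log2 change in CPM is relative to the typical gene of the library. The spike-in scale divides by the summed spike-in reads and follows RNA per sample; on it a gene is given as the percent of its 0 h level left at 3 h. Fewer nuclei in a sample and less RNA in each nucleus cannot be told apart on that scale. Log2 changes carry a standard error (SE), with n = 2 libraries a group, and a gene was called where edgeR's adjusted p was below 0.05. The spread was estimated over 12 libraries, those labelled Ythdc1_Control and Ythdc1_cKO at 0, 3 and 6 h.

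Gene reads numbered 8840925 and 12524328 at 0 h and 13287263 and 15012343 at 3 h, and spike-in reads ranged from 7032 to 16555. Of the 8 stem cell markers all were detected, with a summed level of 2650 and 2580 CPM at 0 h and 3230 and 3410 at 3 h. Markers of fibroblast feeders, 6 of 8 of which could be tested, summed to 10.1 and 12.1 CPM at 0 h and 27.7 and 32.9 at 3 h, with Dcn at 0 in both 0 h libraries. Endoderm markers lay between 4.66 and 5.51 CPM in sum, with Foxa2 at 0 in all 4 libraries, and trophoblast markers between 3.02 and 4.51. Neuroectoderm and mesoderm markers summed to 73.3 and 78.5 CPM at 0 h and 104 and 112 at 3 h, most of it Nes and Tubb3. Ythdc1 itself, the nuclear reader of N6-methyladenosine, had 145 and 132 CPM at 0 h and 51.9 and 50.3 at 3 h, a log2 change of -1.44 (SE 0.082).

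Reads that the authors' counting assigned to no gene were lost most. They made up 50.1% (95% Wilson interval 50.05 to 50.1) and 49.7% (49.72 to 49.76) of uniquely placed reads at 0 h, and 24.5% (24.52 to 24.56) and 23.2% (23.14 to 23.18) at 3 h. The intervals cover counting error only, since reads had no molecular identifiers. Per spike-in read there were 1340 and 1350 such reads at 0 h and 320 and 295 at 3 h, so that 22.8% was left. Reads assigned to 1 gene went from 1260 and 1300 per spike-in read to 911 and 907, with 71.2% left. Both quantities separated the times without overlap. Reads that fell in more than 1 gene kept 96.5% of their number per spike-in read. With 2 libraries a group no exact test of these shares can reach a low p, and none was made.

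**Figure D1:**
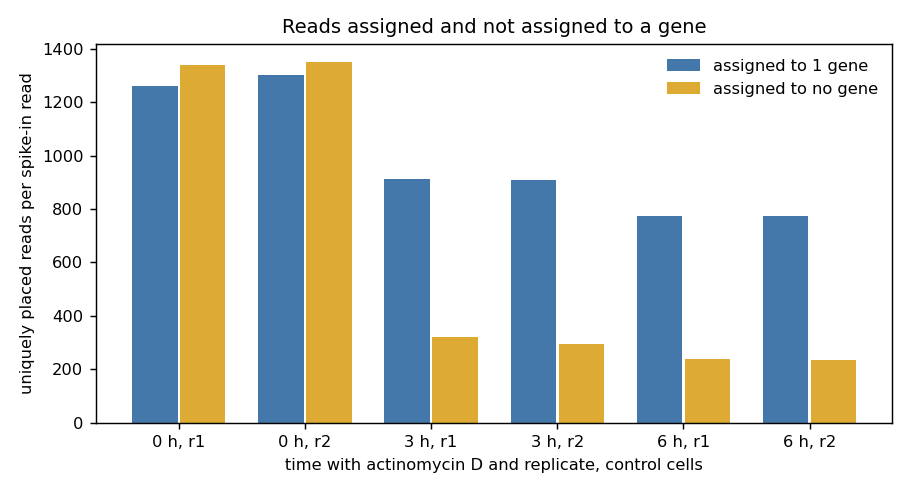
Bars give uniquely placed reads per spike-in read in each control library, for reads assigned to 1 gene and to no gene; 6 h is shown for context. Reads assigned to no gene drop from 1340 and 1350 at 0 h to 320 and 295 at 3 h, and gene reads from 1260 and 1300 to 911 and 907.

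The background of calls is high, and each count in a list below is to be read beside the shares of all genes. Among 17900 genes tested, 27.1% were lower at 3 h and 29.3% higher in CPM; on the spike-in scale 51.1% were lower and 7.19% higher. A change of at least 2-fold was called down in 2337 genes and up in 1169 in CPM, and down in 4452 and up in 200 on the spike-in scale. The median gene stood at 0.07 in CPM and at -0.46 against spike-ins, which leaves 72.7%. A gene higher by less than this shift in CPM is lower or not called against spike-ins, and each such gene below is given on both scales. Calls also depend on level, taken as mean CPM over the 4 libraries. Of protein-coding genes other than histone and Zfp genes, 8.75% were higher and 5.39% lower at up to 1 CPM. Above 100 CPM 52.3% were higher and 26.7% lower. For lists of abundant genes the shares of all genes are therefore a low background.

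Annotated types of gene parted along these lines. Of 14147 protein-coding genes, 23.6% were lower and 34.6% higher, and their median stood at 0.15. Genes of the type TEC, unspliced transcripts awaiting experimental support, had 608 of 968 lower and 6 higher, with a median of -1.35 and 27.3% left. Sense intronic genes, which lie within introns of another gene on its strand, had 114 of 156 lower and 3 higher, with 23.4% left. Of 52 miRNA genes, 33 were lower and 2 higher, with a median of -2.98. The scaRNAs, which guide modification of spliceosomal RNA in Cajal bodies, went the other way, with 10 of 15 higher and 1 lower.

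**Figure D2:**
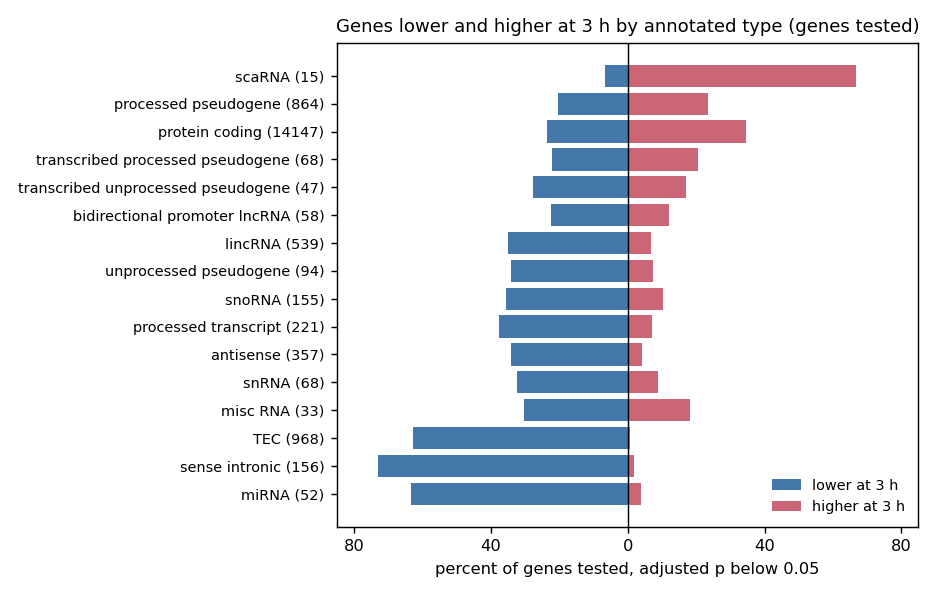
Percent of tested genes that were lower (left) and higher (right) at 3 h in CPM, for each annotated type with at least 15 genes tested, ordered by median change. The miRNA, sense intronic and TEC types lean to the left, with 63.5%, 73.1% and 62.8% lower, and scaRNAs to the right, with 66.7% higher.

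Among the miRNA genes stood the hairpins of the miR-290 to miR-295 cluster, whose miRNAs are abundant in embryonic stem cells and hold back inhibitors of the cell cycle. These genes were chosen after their values were seen. In total RNA, reads at these loci stem from the long precursor or the hairpin, and mature miRNAs are hardly captured. The cluster runs on the plus strand from Mir290a to Mir295, within chr7:3218626-3220841 (GRCm38), and its miRNAs fall into seed groups. Mature sequences from RefSeq (GRCm38.p6) follow, with the seed, bases 2 to 8, in capitals. The sequences used did not include miR-292a-3p, so counts of a seed cover only those present. The first set shares AAGUGC as the first 6 bases of the seed, as 5 of the mature sequences present do:
mmu-miR-290a-3p: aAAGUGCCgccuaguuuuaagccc
mmu-miR-291a-3p: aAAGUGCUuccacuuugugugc
mmu-miR-291b-3p: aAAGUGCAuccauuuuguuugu
mmu-miR-294-3p: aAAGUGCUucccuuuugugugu
mmu-miR-295-3p: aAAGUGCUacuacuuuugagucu
The second set shares CUCAAA, as 5 mature miRNAs from the other arm do, 3 of which are shown:
mmu-miR-290a-5p: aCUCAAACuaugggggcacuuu
mmu-miR-292a-5p: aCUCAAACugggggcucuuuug
mmu-miR-293-5p: aCUCAAACugugugacauuuug

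The 7 hairpins of this cluster together held 863 and 1113 reads at 0 h and 37 and 44 at 3 h, despite the deeper 3 h libraries. That is 93 and 84.6 CPM at 0 h against 2.73 and 2.87 at 3 h, a ratio of 31.7 with no overlap. Per spike-in read 2.18% was left at 3 h, and 3.87% at 6 h. All 7 genes were called lower, as were 63.5% of the 52 miRNA genes tested, these included, and 27.1% of all genes. The cluster was chosen after its values were seen, so its separation and its calls are not a result. Mir290a, at the upstream end, kept the most reads, with 118 and 132 at 0 h and 17 and 17 at 3 h, a log2 change of -3.25 (SE 0.26). Mir291b, with the most reads at 0 h (196 and 288), had 5 and 7 at 3 h, a change of -5.67 (SE 0.27). Mir295, at the downstream end, went from 122 and 168 reads to 2 and 2, too few to size its change closely.

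Some long noncoding RNAs that carry miRNAs were lower and others higher. H19 and Meg3, which host miRNAs too, were higher in CPM, by 0.57 (SE 0.17) and 0.42 (SE 0.076), and not called against spike-ins. Mir17hg, host of the miR-17 to miR-92a cluster, had 76.7 and 60.5 CPM at 0 h and 3.38 and 4.52 at 3 h (log2 change -4.10, SE 0.18, 4.06% left). Dleu2, host of miR-15a and miR-16-1, had 121 and 111 CPM and then 14.0 and 9.25 (-3.32, SE 0.16). Mir124a-1hg changed by -2.77 (SE 0.22). These 3 were chosen among the lowest called long noncoding genes without overlap between the groups, so their separation is not a result. Lrrc75aos2, annotated as antisense to Lrrc75a, had 41.8 and 41.3 CPM at 0 h and 0.441 and 0.852 at 3 h (-5.96, SE 0.22). Whether the counting used strand is not given, so reads of a gene and its antisense partner cannot be told apart.

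Of 39 long noncoding RNAs listed and tested, 22 were lower and 6 higher, with a median of -0.80 and 39.9% left. Gm26917, annotated as noncoding and placed in this list, took 5.41% and 5.77% of all gene reads at 0 h. At 3 h it took 0.294% and 0.35% (-4.08, SE 0.10, 4.1% left). Which transcript these reads stem from was not tested. Neat1, the scaffold of paraspeckles, had 213 and 208 CPM at 0 h and 56.4 and 48.3 at 3 h (-2.01, SE 0.067, 17.3% left). Malat1, the abundant RNA of nuclear speckles, had 8050 and 7450 CPM at 0 h and 8200 and 7840 at 3 h; the groups overlap, and its change of 0.05 (SE 0.039, adjusted p = 0.299) was not called. Against spike-ins it was called lower, by -0.47. Kcnq1ot1, an unspliced RNA that silences an imprinted domain in cis, went from 1080 and 1060 CPM to 364 and 330 (-1.62, SE 0.052). Nespas, an imprinted antisense RNA, changed by -1.99 (SE 0.10). Xist was under 0.5 CPM in all 4 libraries and was not called (adjusted p = 0.694). Firre, a repeat-rich RNA that stays in the nucleus, was higher in CPM, from 128 and 133 to 207 and 194 (0.62, SE 0.061), and not called against spike-ins at 0.09.

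The snoRNA host genes, whose introns carry snoRNAs and whose spliced RNA is often a target of nonsense-mediated decay, had 12 of 18 lower, 2 higher and a median of -1.57, with 23.3% left. Gas5 fell from 379 and 352 CPM to 77.8 and 80.6 (-2.20, SE 0.076). Snhg5 fell from 90.4 and 92.6 to 15.1 and 14.8 (-2.61, SE 0.10), and Zfas1 from 129 and 124 to 32.8 and 33.8 (-1.92, SE 0.078). Snhg11 was higher, from 61.0 and 62.9 to 117 and 117 (0.92, SE 0.069), also against spike-ins. The other gene called higher, Gas6, shares the prefix but encodes a secreted ligand and hosts no snoRNA.

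Replication-dependent histone mRNAs end in a short stem-loop in place of a poly(A) tail, and the loop binds the protein that sets their life to S phase. Of 62 tested, 61 were lower, with a median of -2.94 and 9.07% left; Hist1h1t, near 0.3 CPM, was not called at -1.06 (adjusted p = 0.269). A perfect stem of 6 bases that begins with GG around a loop of 4 bases was found in the annotated 3′ UTR of 46 of the 67 genes of this list. Hist3h2ba is among the 46 and stands in the list of replication-independent variants too. The forms below are shown since they belong to the named histone genes and to the least changed one; stems are in capitals, 5′ to 3′, from GENCODE M21 transcripts (GRCm38):
Hist1h1d, chr13:23555787-23555802, plus strand: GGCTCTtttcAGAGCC
Hist1h4j, chr13:21735437-21735452, plus strand: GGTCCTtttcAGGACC
Hist2h4, chr3:96262939-96262954, minus strand: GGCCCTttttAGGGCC
Hist1h4a, chr13:23760800-23760815, minus strand: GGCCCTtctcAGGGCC

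The commonest form, that of Hist1h1d, occurred in 26 genes, of which all 23 tested were lower, from -3.96 to -1.90. Hist1h1d, a linker histone, had 281 and 289 CPM at 0 h and 19.6 and 17.2 at 3 h (-3.96, SE 0.082, 4.48% left). Hist1h4j had 50.9 and 55.7 CPM and then 3.60 and 3.48 (-3.91, SE 0.18). The linker histone genes Hist1h1a and Hist1h1c changed by -2.92 (SE 0.066) and -2.56 (SE 0.073). The least change among the called histones was that of Hist1h4a, -0.93 (SE 0.11), the gene whose loop has the letters tctc. The 42 tested genes with a loop found had a median of -2.82 and the 20 without one found -3.04, with 41 and 20 of them lower. The families are near-identical in coding sequence and are measured on unique reads alone. The list of replication-independent variants, most of them made outside S phase from polyadenylated mRNA, had 6 of 12 higher and 2 lower, with a median of 0.09 in CPM and -0.43 against spike-ins. H2afy (macroH2A1) was higher on both scales, by 0.78 (SE 0.068) in CPM. The lower ones were H2afx, at -0.35, and Hist3h2ba, at -2.13 (SE 0.30). Hist3h2ba holds the stem-loop of the commonest form and is counted in both lists. Stem-loops were searched only in genes with a Hist symbol, so variants without one, H2afx among them, were not searched.

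Immediate early genes are transcribed within minutes of a growth signal, and their mRNAs turn over fast. Of 30 tested, 23 were lower and 1 higher, with a median of -1.16 and 31.2% left. Ccn1 and Ccn2 encode secreted matrix proteins. Ccn1 had 23.6 and 25 CPM at 0 h and 2.06 and 2.43 at 3 h (-3.43, SE 0.19), and Ccn2 77.7 and 80.9 and then 23.1 and 21.8 (-1.82, SE 0.086). Ier2, a nuclear regulator without introns, went from 33.3 and 32.7 to 6.69 and 7.87 (-2.17, SE 0.14). Fos was low throughout, with 1.84 and 2.14 CPM at 0 h and 1.18 and 0.787 at 3 h (-1.04, SE 0.40, adjusted p = 0.0283). The call of Fos was lost by DESeq2's Wald test (adjusted p = 0.0721) and in edgeR's test with no filter (adjusted p = 0.0803). It was also lost without r1 of 0 h, r2 of 0 h or r2 of 3 h, at log2 changes of -1.13, -0.91 and -0.76. The single gene called higher was Jund, at 0.43 (SE 0.12) in CPM; against spike-ins it stood at -0.09 and was not called.

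Myc, the transcription factor of growth, had 32.8 and 33.1 CPM at 0 h and 4.19 and 3.93 at 3 h (-3.02, SE 0.15, 8.57% left). Its relative Mycn changed by -1.09 (SE 0.10) and its antagonist Mnt by -0.81 (SE 0.11). In the MYC network as a whole 6 of 13 were lower and 1 higher, with a median of -0.28. On the spike-in scale 12 of the 13 were lower, where 51.1% of all genes were.

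Among FGF and ERK feedback genes 11 of 20 were lower and 3 higher, where 27.1% of all genes were lower and 29.3% higher. Fgf4, the ligand that stem cells make, fell from 382 and 364 CPM to 81.2 and 88.9 (-2.13, SE 0.068). Among intracellular inhibitors of the pathway, Spry4 had 9.65 and 10.9 CPM at 0 h and 0.441 and 0.197 at 3 h (-5.00, SE 0.34), and Spry2 fell from 126 and 132 to 40.6 and 38.0 (-1.71, SE 0.081). Il17rd, which holds back the receptor, changed by -1.27 (SE 0.076). The receptor Fgfr1 was higher in CPM, from 74.6 and 76.1 to 106 and 121 (0.59, SE 0.073), and not called against spike-ins at 0.06. The MEK inhibitor in the medium acts on this pathway in both groups. Ligands and receptors were not compared by a test.

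Among BMP, TGF-beta and Notch targets 9 of 19 were lower and 2 higher, with a median of -0.74. Among all genes 27.1% were lower and 29.3% higher in CPM, and 51.1% lower and 7.19% higher against spike-ins. The ligand Nodal fell from 197 and 192 CPM to 32.4 and 29.1 (-2.66, SE 0.075). Smad7, an inhibitor of the receptors, changed by -1.61 (SE 0.099), and Id3, a partner that blocks helix-loop-helix factors, by -2.32 (SE 0.21). Lefty2, a secreted antagonist of Nodal, was higher in CPM by 0.42 (SE 0.057), and -0.11 against spike-ins. WNT targets were mixed, with 5 of 17 lower and 6 higher, and 8 lower and 1 higher against spike-ins. Feedback inhibitors stood on both sides. Znrf3 and Axin2 changed by -1.39 (SE 0.091) and -0.90 (SE 0.10), and Rnf43, the paralogue of Znrf3, and Nkd1 by 1.26 (SE 0.37) and 1.17 (SE 0.50), both under 3 CPM at 0 and 3 h and not called against spike-ins. The call of Nkd1 was lost without any 1 of the 4 libraries (adjusted p from 0.0867 to 0.231) and that of Rnf43 without r2 of 0 h (0.0777). Ctnnb1 (beta-catenin) had 714 and 699 CPM and then 1000 and 977 (0.48, SE 0.043; -0.04 against spike-ins, not called). Of 27 p53 targets 17 were lower and 2 higher. Plk2 changed by -1.79 (SE 0.082), the cell cycle inhibitor Cdkn1a by -1.27 (SE 0.080) and Mdm2, the ligase that degrades p53, by -1.1 (SE 0.059). Clock genes and related factors had 7 of 15 lower and 1 higher, among them Nr1d1 at -1.93 (SE 0.28).

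AU-rich elements in 3′ UTRs recruit decay factors in the cytoplasm. The nonamer TTATTTATT was searched on the sense strand of annotated 3′ UTRs and was present in 966 of 14079 tested genes (6.86%), and in 8 of 30 immediate early genes (26.7%). Sites of named genes that were lower (Fos, Plk2, Mdm2) and of named genes that were not (Nanog, Slc2a3) are shown with the nonamer in capitals, from GENCODE M21 transcripts (GRCm38):
Fos, chr12:85477103-85477131, plus strand: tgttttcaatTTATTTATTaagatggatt
Plk2, chr13:110400734-110400762, plus strand: aataaactttTTATTTATTacagccccaa
Mdm2, chr10:117688915-117688943, minus strand: ggcattgatgTTATTTATTtgcaaataaa
Nanog, chr6:122713630-122713658, plus strand: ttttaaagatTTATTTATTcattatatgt
Slc2a3, chr6:122729462-122729490, minus strand: aacttgagttTTATTTATTttatcttcag

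Genes with no nonamer were lower in 22.8% of 13113 cases, those with 1 in 34.9% of 769, those with 2 in 25.8% of 132 and those with 3 or more in 47.7% of 65. Long UTRs hold more such sites: the median UTR was 854 bases with none and 2932 bases with 3 or more. Among UTRs of up to 1000 bases 32.1% of genes with a site were lower against 19.2% without, and in the longest class of UTRs 35.5% against 31.7%. These are counts over genes, which are not replicates. Nanog and Slc2a3 hold the same nonamer as Fos and were higher in CPM, but Nanog was lower against spike-ins, at -0.28. Hist1h1d, Tbp and Zic5 hold the nonamer too and were lower, and Snhg11 holds it and was higher. What part the site had in these changes was not tested.

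Genes of pluripotency went both ways. In the naive list 12 of 25 were lower and 8 higher, and in the core list 10 of 20 lower and 5 higher; both shares lower exceed the 27.1% of all genes. Sox2 had 126 and 118 CPM at 0 h and 52.7 and 48.2 at 3 h (-1.27, SE 0.090, adjusted p = 6.66e-14), and Klf4 75.5 and 83.7 and then 38.4 and 36.7 (-1.09, SE 0.085). Nanog had 600 and 593 CPM and then 693 and 716 (0.24, SE 0.048), and Pou5f1 226 and 237 and then 262 and 318 (0.32, SE 0.067). Both were higher in CPM and lower against spike-ins, at -0.28 and -0.20. In the naive list, Socs3, an inhibitor of the LIF receptor, changed by -2.01 (SE 0.096), Klf2 by -1.60 (SE 0.091) and Tbx3 by -1.17 (SE 0.056). The factor Foxd3 changed by -2 (SE 0.18).

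Dppa5a, an RNA-binding protein of stem cells, was the most raised of the naive list, from 401 and 350 CPM to 882 and 946 (1.28, SE 0.054), and was higher on the spike-in scale by 0.76. Formative and primed genes had 7 of 17 higher and 2 lower in CPM and 1 higher and 5 lower against spike-ins, with medians of 0.27 and -0.26. Zic2 and Zic5 were the lower ones, at -1.12 (SE 0.11) and -1.36 (SE 0.13). The DNA methyltransferases Dnmt3a and Dnmt3b were higher in CPM, by 0.63 (SE 0.064) and 0.57 (SE 0.068), and not called against spike-ins.

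Zinc finger genes of the Zfp family, many with a KRAB domain that recruits silencing factors, had 277 of 361 lower and 15 higher. Their median was -0.88, with 37.6% left, and among all genes 27.1% were lower and 29.3% higher. Zfp26 had 143 and 139 CPM at 0 h and 39.6 and 34.8 at 3 h (-1.92, SE 0.080). Of 24 SR proteins and CLK kinases, which control splicing, 18 were lower and 2 higher. Clk1, whose unspliced RNA is held in the nucleus, fell from 215 and 212 CPM to 34.5 and 33.4 (-2.65, SE 0.089, 11.1% left). Its relative Clk4 changed by -1.44 (SE 0.094) and Rsrc2 by -1.72 (SE 0.082). Among hnRNP and paraspeckle proteins 18 of 31 were lower and 9 higher, with Hnrnpdl lower, at -1.26 (SE 0.077), and Hnrnpm higher in CPM, at 0.43 (SE 0.051; -0.10 against spike-ins, not called).

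RNAs for the transcription machine itself did not move as a block. Of 12 RNA polymerase II subunits 10 were higher in CPM and 0 lower, with a median of 0.45; against spike-ins 1 was higher and 2 lower, with 94.6% left. Polr2f had 43.0 and 42.5 CPM at 0 h and 77.2 and 81.4 at 3 h (0.89, SE 0.089), and Polr2a, the catalytic subunit, 1250 and 1300 and then 1610 and 1680 (0.37, SE 0.040; -0.16 against spike-ins, lower). Elongation and Mediator factors had 20 of 37 lower and 7 higher. Brd2 changed by -0.83 (SE 0.056), the kinase gene Cdk12 by -0.77 (SE 0.053) and the P-TEFb cyclin gene Ccnt2 by -0.90 (SE 0.062).

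Lists of RNA decay and marking held more lower than higher calls, while among all genes 27.1% were lower and 29.3% higher in CPM. Cytoplasmic decay factors had 19 of 39 lower and 5 higher, nuclear decay factors 12 of 27 lower and 7 higher, and the m6A machinery 15 of 25 lower and 5 higher. Cnot6, a deadenylase, changed by -1.07 (SE 0.072), Ddx6, a helicase of P-bodies, by -0.99 (SE 0.065) and Zcchc7, a partner of the exosome, by -1.73 (SE 0.097). Wtap, the adaptor of the m6A writer, fell from 114 and 109 CPM to 51.7 and 47.7 (-1.16, SE 0.078). Srrt, which links the cap to decay and export, was higher on both scales, by 0.82 (SE 0.052) in CPM. Polycomb and H3K9 methylation genes had 16 of 35 lower and 8 higher, none by 2-fold, with Ezh2 at -0.63 (SE 0.079) and Eed at -0.66 (SE 0.066) among the lower and Ehmt2 at 0.83 (SE 0.079) the most raised.

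The upper end of the range held mRNAs of translation and energy metabolism. Of 94 nuclear-encoded genes of the respiratory chain 82 were higher in CPM and 2 lower, with a median of 0.84; against spike-ins 59 were higher and 8 lower, where 7.19% of all genes were higher. Uqcr10, of complex III, had 122 and 122 CPM at 0 h and 273 and 298 at 3 h (1.23, SE 0.060). Cox4i1, of complex IV, had 200 and 204 and then 416 and 470 (1.13, SE 0.055). In glycolysis 18 of 19 were higher and 1 lower, and 16 were higher against spike-ins. The glucose transporter gene Slc2a3 went from 1780 and 1850 CPM to 3250 and 3340 (0.86, SE 0.036), and the aldolase gene Aldoa (ENSMUSG00000030695) from 784 and 836 to 1560 and 1570 (0.95, SE 0.049).

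Ribosomal protein genes had 70 of 77 higher in CPM and 5 lower, with a median of 0.73; against spike-ins 42 were higher and 12 lower. Rps2 rose from 350 and 364 CPM to 819 and 892 (1.26, SE 0.048). Rpl24, Rps10 and Rpl21 were lower, at -3.60 (SE 0.50), -1.26 (SE 0.13) and -1.04 (SE 0.10). Ribosomal protein genes have many near-identical processed copies, and reads that align to several places entered no gene, so these values are uncertain. Proteasome genes had 29 of 31 higher and 0 lower, with a median of 0.60; against spike-ins 7 were higher and 5 lower, with 105% left. Translation factors had 26 of 36 higher and 6 lower in CPM, but 5 higher and 16 lower against spike-ins, with Eef2 at 0.67 (SE 0.039) and Eif4a2 at -1.17 (SE 0.056). Chaperones had 18 of 29 higher and 7 lower in CPM, but 4 higher and 12 lower against spike-ins, with Hsp90ab1 at 0.73 (SE 0.034) and Hsph1 at -0.45 (SE 0.056).

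Of 24 housekeeping mRNAs 21 were higher and 3 lower in CPM, and 7 higher and 6 lower against spike-ins. Actb had 1260 and 1280 CPM at 0 h and 1640 and 1680 at 3 h (0.38, SE 0.049), and against spike-ins it was not called, at -0.14, with 90.6% left. Gapdh, the gene of a glycolytic enzyme and the one lower member of the glycolysis list, had 123 and 131 CPM at 0 h and 17.1 and 20.4 at 3 h (-2.76, SE 0.096, adjusted p = 1.22e-23, 10.2% left). It too has many processed copies, and what part its uncounted reads had in this value was not tested. Tbp, the gene of the TATA-binding protein, changed by -0.92 (SE 0.099).

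**Figure D3:**
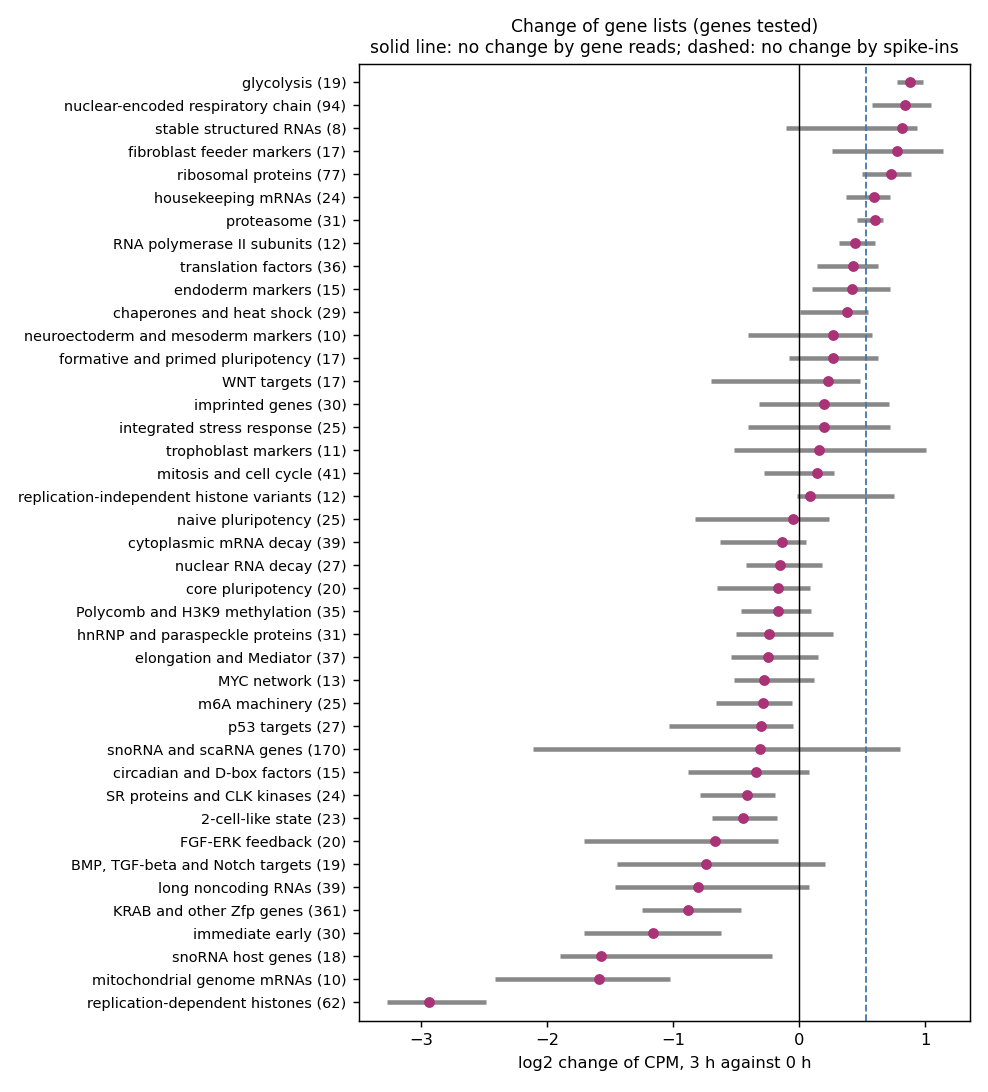
Median (point) and quartiles (bar) of the log2 change in CPM from 0 to 3 h for each gene list, with the number tested. The solid line marks no change in CPM and the dashed line no change per spike-in read; glycolysis and the respiratory chain lie right of both lines and replication-dependent histones lowest, at -2.94.

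Rises were ranked among called protein-coding and long noncoding genes with at least 50 reads on average and no overlap between the groups. Symbols of the Gm or Rik type were left out. The 10 largest rises were mostly in genes of low level. Platr15, a long noncoding RNA tied to pluripotency, had 0.759 and 1.30 CPM at 0 h and 12.1 and 13.8 at 3 h (3.58, SE 0.23), and was 833% of its 0 h level per spike-in read. Ltbp3, which binds latent TGF-beta, had 1.08 and 1.30 CPM and then 6.47 and 7.67 (2.54, SE 0.32). Cacna1h, a calcium channel gene, had 0.867 and 1.15 and then 7.35 and 5.44 (2.62, SE 0.40). The rule for these genes asked for no overlap between the groups, so their separation is not a result. Igfbp4 went from 9.32 and 7.71 to 31.5 and 34.8 (1.98, SE 0.15), and the lipid transporter gene Abca7 from 23.2 and 24.6 to 83.3 and 84.9 (1.81, SE 0.088). All 10, which also hold Mettl7a1, Card19, Slc9a5, Pdgfrb and Fkbp14, were higher on the spike-in scale too.

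Pdgfrb, with 4.01 and 5.88 CPM at 0 h and 16.9 and 19.6 at 3 h (1.85, SE 0.18), is also a marker of fibroblast feeders. Of 17 such genes tested 7 were higher and 0 lower, where 29.3% of all genes were higher. Col1a1 had 1.19 and 2.21 CPM and then 3.46 and 3.48, Thy1 2.82 and 2.37 and then 4.56 and 6.49, while Lum and Dcn were at or under 0.0764 CPM in every library. Fn1, a matrix gene that stem cells express too, had 2420 and 2560 CPM and then 4120 and 4250 (0.75, SE 0.037). The call of Col1a1 was lost without r1 of 0 h (adjusted p = 0.151). The part of other cells in the genes of low level was not tested.

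Of 8 stable structured RNAs tested 3 were higher and 0 lower in CPM, and 1 was higher against spike-ins. Of 68 snRNA genes 22 were lower and 6 higher, with 45.8% left. Rn7sk, the scaffold that holds P-TEFb inactive, had 5360 and 5120 CPM at 0 h and 11600 and 11700 at 3 h (1.15, SE 0.033, adjusted p = 4.11e-26), and 155% of its level per spike-in read. Rpph1, the RNA of RNase P, had 478 and 575 CPM and then 957 and 1330 (1.12, SE 0.28), and Terc, the telomerase RNA, 51.4 and 42.2 and then 66.2 and 97.8 (0.82, SE 0.21); neither was called against spike-ins. The call of Rpph1 was lost without r1 of 0 h (adjusted p = 0.0842) or r2 of 3 h (0.077), and that of Terc without r2 of 0 h (0.0894). The Y RNA gene Rny1 differed more between replicates than between times; it had 275 and 76.4 CPM at 0 h and 262 and 12.3 at 3 h, and was not called (adjusted p = 0.841). All snoRNA genes took 0.698% and 0.448% of gene reads at 0 h and 0.823% and 1.27% at 3 h.

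Of 170 snoRNA and scaRNA genes tested 56 were lower and 26 higher, with a median of -0.31. The direction of this median depends on the genes and libraries used: it was 0.50 with a filter of 50 reads in 2 libraries and 0.13 without r1 of 0 h. Scarna6 was higher, from 78.9 and 69.7 CPM to 132 and 147 (0.91, SE 0.070), also against spike-ins. Snord82 was lower, from 5.53 and 4.12 to 0.809 and 0.262 (-3.17, SE 0.43). A snoRNA read can also stem from the intron of its host.

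Mitochondrial mRNAs are made by another polymerase from another genome, and in a nuclear fraction they come from mitochondria carried along. Of 10 tested, 7 were lower and 0 higher, with a median of -1.59. mt-Cytb had 1020 and 932 CPM at 0 h and 255 and 234 at 3 h (-2, SE 0.067), and mt-Nd1 2010 and 1820 and then 390 and 259 (-2.56, SE 0.19). The mitochondrial genome as a whole, ribosomal RNAs included, took 2.70% and 2.32% of gene reads at 0 h and 2.71% and 2.06% at 3 h, ranges that overlap.

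Other programmes were mixed, and the shares lower in CPM in the cell cycle and stress lists lay near the 27.1% of all genes. Of 41 cell cycle genes 18 were higher and 11 lower, with the licensing factor Cdt1 at -1.67 (SE 0.10), the phosphatase gene Cdc25a at -0.96 (SE 0.075) and the helicase subunit Mcm2 at 0.44 (SE 0.051) in CPM and -0.08 against spike-ins, not called. On the spike-in scale 33 of the 41 were lower, where 51.1% of all genes were. In the integrated stress response 7 of 25 were lower and 11 higher in CPM, and 12 lower and 5 higher against spike-ins: the regulator Atf4 changed by -1.27 (SE 0.072), while Phgdh and Psat1, enzymes of serine synthesis that it induces, changed by 0.95 (SE 0.074) and 0.76 (SE 0.060) and were higher on both scales. Of 30 imprinted genes 15 were higher and 8 lower in CPM, but 3 higher and 14 lower against spike-ins, with Igf2r at 0.74 (SE 0.048) and Peg3 at 0.68 (SE 0.053). Genes of the 2-cell-like state had 11 of 23 lower and 0 higher, where 27.1% of all genes were lower and 29.3% higher.

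**Figure D4:**
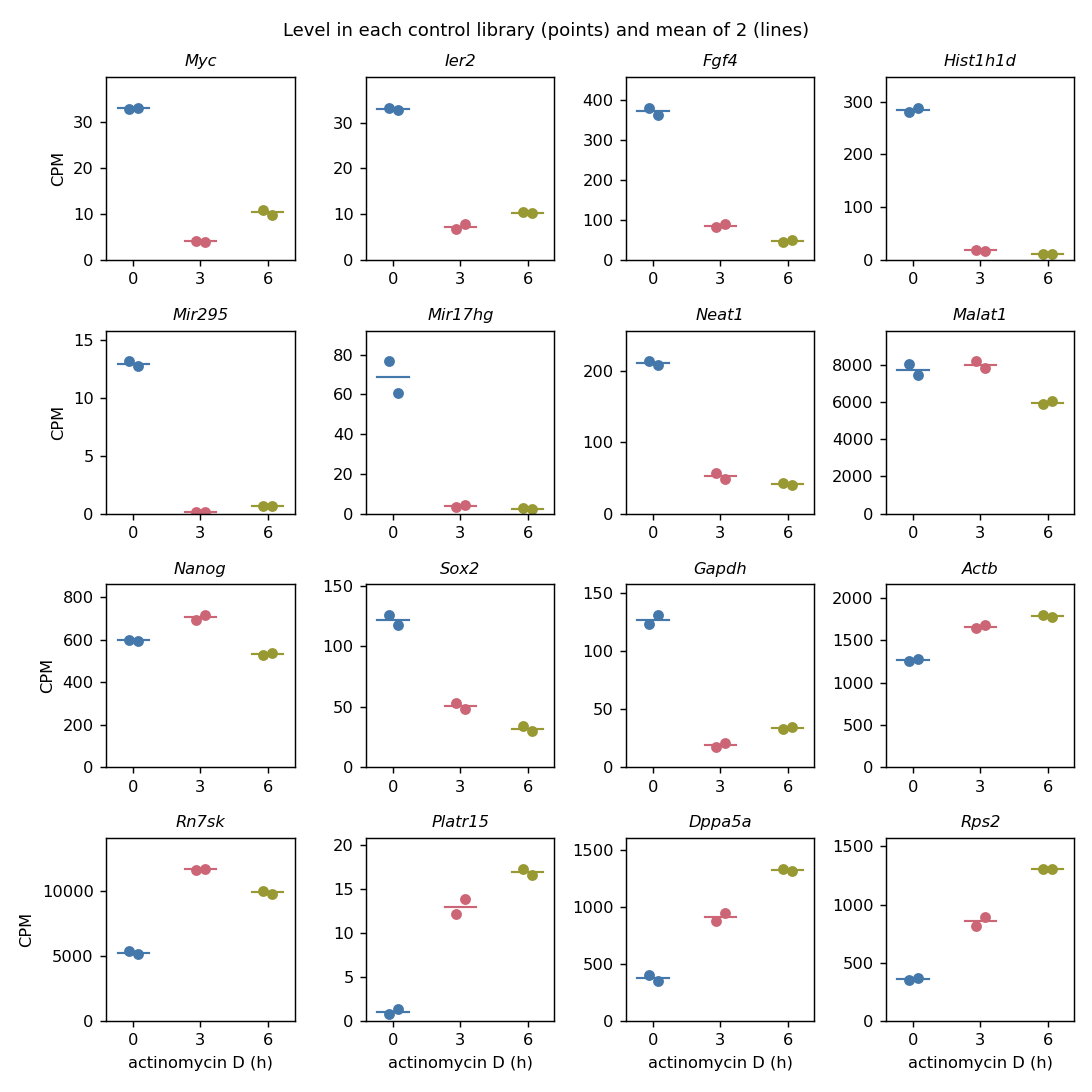
CPM of 16 genes in each control library (points, r1 left and r2 right) and the mean of 2 (lines) over time, each on its own linear axis from 0. Myc, Hist1h1d and Mir295 drop by 3 h, Malat1 keeps its level between 7450 and 8200 up to 3 h, and Rn7sk, Platr15 and Rps2 stand higher.

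Gene structure was described over 13721 protein-coding genes, leaving out histone and Zfp genes. Genes whose transcript had up to 40% GC had a median of -0.32 with 44.3% lower and 11.4% higher; those over 56% GC had 0.39 with 14.6% lower and 45.0% higher. The bins between rose in order, at -0.06, 0.06, 0.19 and 0.30. Among genes of 5 to 16 exons the ends stood at -0.30 and 0.39. Genes of 1 and 2 exons had medians of -0.23 and -0.27, and those of over 16 exons 0.21. Gene span gave no order, with medians from 0.14 to 0.55 and only 68 genes in the shortest bin, and Spearman's rho across genes was 0.25 for GC, 0.10 for exons and -0.02 for span. Library r2 of 3 h and r1 of 3 h differ here: the difference between the GC ends, 0.70, was 0.56 without r2 and 0.82 without r1. GC content of a library can also reflect its preparation, which was not tested.

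**Figure D5:**
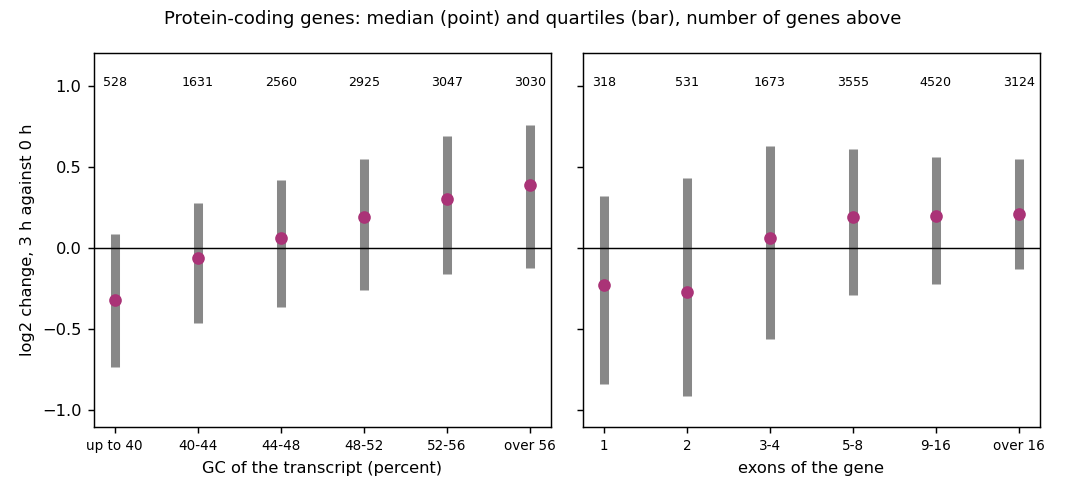
Median (point) and quartiles (bar) of the log2 change in CPM by GC content of the transcript and by number of exons; numbers of genes stand above. Medians rise with GC from -0.32 to 0.39, and genes of 1 or 2 exons lie below the rest.

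The change over the first 3 h was set against that of the next 3 h, with 2 further control libraries at 6 h. Both changes share the 3 h libraries, so they are tied by construction: a library error at 3 h moves them apart. The first change lay below the second in 2471 genes (13.8%) and above it in 2962 (16.5%). This balance depends on the scaling: against spike-ins 2951 lay below and 1870 above, and with library size alone 1941 below and 4012 above. Of the replication-dependent histones 45 lay below and 1 above; of the immediate early genes 16 lay below and 1 above; of the 94 respiratory chain genes 52 lay above and 2 below. Hist1h1d, already down to 19.6 and 17.2 CPM, had 11.1 and 11.3 at 6 h, a log2 change of -0.71 after -3.96. Myc went from 4.19 and 3.93 CPM at 3 h to 10.8 and 9.81 at 6 h, and its later change was 0.95 against spike-ins. Gapdh likewise went from 17.1 and 20.4 to 33.0 and 34.4. Rn7sk, higher at 3 h, had 10000 and 9720 CPM at 6 h, and Rpl8 went from 758 and 818 CPM to 1460 and 1560 and then 1520 and 1620. Ndufb1-ps, annotated as a long noncoding RNA of a bidirectional promoter, had 13.2 and 12 CPM, then 36 and 38, then 22.9 and 24.2.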

How the data were processed

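Nuclear total RNA freed of ribosomal RNA was sequenced in 18 libraries, of which 4 are compared here. The files deposited by the authors hold raw counts of reads for each gene and spike-in. Per the submitters' processing notes, CASAVA, Trimmomatic 0.38, HISAT2 2.1.0, HTSeq and mm10 were used; the strand setting and gene-model release are not given in the sources used. Gene names and types came from GENCODE M21, which held 54409 of 54446 gene IDs without the version and 53229 with it.

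Counts were fitted with edgeR 4.0.16 in R 4.3.3 (quasi-likelihood, robust, TMM) over 12 libraries of 6 groups. The groups were Ythdc1_Control and Ythdc1_cKO at 0, 3 and 6 h, and all entered the filter, the TMM factors and the spread. The filter was filterByExpr at a minimum count of 10, with Benjamini-Hochberg adjustment at 0.05, and spike-in rows stayed out of library sizes. A fit of only the 4 control libraries of 0 h and 3 h called 10120 genes, 4893 higher and 5227 lower. The spike-in scale used the summed reads of 92 spike-ins. DESeq2 1.42.0 was an alternative. The scripts were tested on simulated data. Replicates differed by more than sampling noise, the chi-square divided by its degrees of freedom being 3.94 at 0 h and 6.72 at 3 h.

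Genes and lists were chosen with earlier results of these data known. Named were a fixed set and the 10 highest and 10 lowest called genes, with up to 5 long noncoding genes each way. These 10 and 5 each way were protein-coding or long noncoding, without Gm or Rik symbols. They had at least 50 counts on average and no overlap. Also named were up to 3 called genes each way from each of 41 lists by smallest p. For the early against late contrast 4 genes each way were named. The miR-290 cluster, Hist1h1t, Hist1h4a, H19, Gm26917, Rnf43, Nkd1, Col1a1, Thy1 and Rny1 were named after their values were seen. Some genes that the rule names are not reported here.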

Additional observations from a re-analysis of the deposited data

Results flagged for a closer look

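The changes of the first 3 h and the next 3 h differed by the test of their difference (edgeR, 2 libraries per time). The first lay below the second in 2471 genes and above it in 2962. The difference of the log2 changes, first minus second, was -3.61 for Gapdh, -3.24 for Hist1h1d, -2.08 for Hist1h1a and -2.29 for Hist1h1c. It was 1.40 for Rn7sk, 2.21 for Ndufb1-ps, 0.87 for Rpl8 and 0.64 for Slc2a3. The 3 h libraries enter both changes.

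Uniquely placed reads that fell in more than 1 gene, used in no comparison of genes, were 5.64% on average at 3 h and 2.79% at 0 h.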

How the results depend on the processing

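On the spike-in scale the counts were 1287 higher and 9147 lower, and 1870 genes had a first change above the second; the latter count was 1690 by DESeq2's Wald test. A filter of 50 reads in 2 libraries left 2012 genes called at 2-fold or more. Scaled to spike-ins, list medians turned to -0.29 (WNT targets), -0.26 (formative; neuroectoderm and mesoderm), -0.08 (RNA polymerase II), -0.43 (histone variants), -0.09 (translation factors), -0.14 (chaperones), -0.32 (stress response), -0.38 (cell cycle), -0.33 (imprinted), -0.11 (endoderm) and -0.37 (trophoblast); scaling to spike-ins moves all genes down alike. The snoRNA and scaRNA median was 0.50 with the filter of 50 reads. The uncalled change of Malat1 was -0.02 with DESeq2's size factors and by its Wald test, -0.03 with that filter and -0.47 against spike-ins; the cause was not tested. Higher in CPM but below 0 against spike-ins were Actb and Ctnnb1 (-0.14 and -0.04), Hnrnpm and Meg3 (-0.10 each), Jund (-0.09), Lefty2 (-0.11), Mcm2 (-0.08), Nanog (-0.28), Polr2a (-0.16), Pou5f1 (-0.20) and Tubb3 (-0.24), and the uncalled Xist stood at -0.04. With TMM factors over spike-ins, H2afy, Psat1, Eef2, Hsp90ab1, Igf2r, Nes and Peg3 were no longer called higher on that scale, nor Polr2a lower.

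Leaving out 1 library gave 3517 to 5240 genes that differed between the first and second change, 1942 to 3051 of them above and 1563 to 2218 below; the low ends came without r1 or r2 of 3 h. The GC difference ranged from 0.56 to 0.82. Spike-in calls higher ranged from 843 (without r1 of 0 h) to 1115, and were 848 without r2 of 3 h. Nkd1 was also not called with the replicate number as a block (adjusted p = 0.0512), DESeq2's size factors (0.0599), library size alone (0.0531), DESeq2's Wald test (0.161) or no filter (0.0656). Tubb3 was not called without r1 of 0 h or r2 of 3 h. Malat1 ranged from -0.01 to 0.11, Rny1 from -3.82 to 0.84, Xist from -0.18 to 0.95 and the snoRNA and scaRNA median from -0.73 to 0.13.

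Replicate numbers did not pair the samples: over 15 pairs of groups the correlation of same-numbered deviations was 0.00176 to 0.0499. With the number as a block, 10172 genes were called, 5283 higher and 4889 lower, against 10107 without it, and 5645 differed between the changes. Leaving out libraries from the spike-in fit, the block on that fit, the filter of 50 reads and size factors on the early against late contrast, and GC content were added after seeing the data. The 2 libraries per time and few spike-in reads (from 7032) limit the precision.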
